A study of Mus musculus with 12 samples.

Results

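Genes of the bone morphogenetic protein (BMP) pathway were examined in hippocampal RNA-seq of aged mice: the ligand genes Bmp4, Bmp6 and Bmp7, the inhibitor of DNA binding genes Id1, Id2, Id3 and Id4, and the inhibitory Smad genes Smad6 and Smad7. These 9 genes were taken by symbol from a table of 27833 genes, and all 9 were among the 13796 genes with a mean of at least 0.5 FPKM (fragments counted on a gene, scaled to its length and to the size of the library) that were tested. All libraries came from WT male C57BL/6J mice aged 20 months, so that no young group stands beside them. The CON group received 0.2 mL of saline (3 libraries), PQQ-L received pyrroloquinoline quinone, a redox-active quinone taken as a supplement, at 5 mg/kg/day (5 libraries), and PQQ-H received 10 mg/kg/day (4 libraries), in each case by oral gavage for 14 days. The study assigned 6 mice to each group, and the labels do not say whether a library is 1 mouse or a pool, so the p-values measure the spread between these libraries.

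BMP ligands are secreted dimers that bind paired type I and type II receptor kinases, which phosphorylate Smad1, Smad5 and Smad9. These enter the nucleus with Smad4 and switch on target genes, of which Id1, Id2 and Id3 are the classical ones. Id proteins lack a DNA-binding domain and hold E proteins away from E-box sites, and Smad6 and Smad7 are induced by the pathway and block it again. In the adult hippocampus BMP signalling keeps neural stem cells quiescent, and in the brain the ligands are also made by the choroid plexus, the meninges and blood vessels.

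The windows around the transcription start of the 4 genes that had an entry and were lower at an unadjusted p below 0.05 in both comparisons with CON are shown here, because the comparisons with CON turn on these genes. Entries were found for 6 of the 8 genes looked up (Id2, Id3, Id4, Bmp4, Bmp6 and Smad6). Each window runs from 250 bases before to 50 after the RefSeq start, 5′ to 3′ on the strand of the gene, in build GRCm38.p6, which is not the build named in the labels (mm39). Capitals mark AGAC or GTCT, the short box that Smad proteins bind, on both strands. The windows are those of Bmp4 (chr14:46390620-46390919, minus strand), Bmp6 (chr13:38345466-38345765, plus strand), Id3 (chr4:136143572-136143871, plus strand) and Smad6 (chr9:64022010-64022309, minus strand).
Bmp4: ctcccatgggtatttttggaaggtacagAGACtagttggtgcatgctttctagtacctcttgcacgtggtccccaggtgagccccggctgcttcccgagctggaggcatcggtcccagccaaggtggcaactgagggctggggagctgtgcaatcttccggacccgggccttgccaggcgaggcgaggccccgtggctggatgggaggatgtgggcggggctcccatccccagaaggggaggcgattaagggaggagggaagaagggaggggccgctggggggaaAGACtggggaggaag
Bmp6: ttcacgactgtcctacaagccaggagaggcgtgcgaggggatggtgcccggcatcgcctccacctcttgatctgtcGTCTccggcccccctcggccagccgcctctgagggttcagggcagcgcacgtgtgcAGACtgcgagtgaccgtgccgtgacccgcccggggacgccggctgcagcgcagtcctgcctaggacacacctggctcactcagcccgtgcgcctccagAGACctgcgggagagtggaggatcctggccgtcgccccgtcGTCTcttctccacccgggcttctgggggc
Id3: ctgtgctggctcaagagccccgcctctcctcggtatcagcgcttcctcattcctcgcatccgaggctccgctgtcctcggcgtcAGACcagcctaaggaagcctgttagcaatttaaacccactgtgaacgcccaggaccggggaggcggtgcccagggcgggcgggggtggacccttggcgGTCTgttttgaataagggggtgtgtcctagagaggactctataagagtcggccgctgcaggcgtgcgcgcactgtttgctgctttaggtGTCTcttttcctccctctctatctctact
Smad6: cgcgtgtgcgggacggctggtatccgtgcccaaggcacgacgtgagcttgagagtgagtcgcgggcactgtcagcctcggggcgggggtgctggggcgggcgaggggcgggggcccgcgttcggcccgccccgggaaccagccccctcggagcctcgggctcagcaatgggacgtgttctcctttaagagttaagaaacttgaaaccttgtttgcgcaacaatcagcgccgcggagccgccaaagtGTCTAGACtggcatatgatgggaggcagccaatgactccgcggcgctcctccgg

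The Smad box occurred 2 times in the Bmp4 window, 4 times in Bmp6, 3 times in Id3 and 2 times in Smad6. In the windows not shown it occurred 1 time in Id2 and 0 times in Id4. The median was 2 over 32851 promoters, of which 88.0% held at least 1. In Smad6 both copies lie side by side as GTCTAGAC, with its first base at position -4 from the start. This palindrome, looked up after the letters were seen, was held by 0.213% of all promoters and by no other window of the 6. The GC-rich Smad element GGCGCC was found once in Id2 (position -231) and once in Id4 (position -148), against 11.9% of all promoters. E-box letters (CANNTG) occurred 3 times in Bmp4, 2 times in Bmp6 and once each in Smad6 and Id2 (72.3% of all promoters), and the cyclic AMP element TGACGTCA (1.79% of all promoters) was in none of the 6 windows. These are matches of letters in short windows and not measured binding sites.

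The libraries held 29654553 to 38179496 reads on genes (median 35168172). Before any comparison, 4 libraries stood apart: in CON 1, CON 3, PQQ-H 1 and PQQ-H 2 the summed FPKM of 11 striatal neuron genes was 1402 to 3497, against 49.4 to 208 in the other 8 libraries. No PQQ-L library was among the 4, so that without CON 2 the PQQ-L comparison sets 2 striatum-rich controls against 5 striatum-poor libraries. The hippocampal neuron list (10 genes, first gene Fibcd1) summed to 32.2 to 234 FPKM in CON, 134 to 290.2 in PQQ-L and 64.9 to 384 in PQQ-H, with the lowest of the 12 in CON 1. In the 4 libraries the striatal sum was above the hippocampal one, which goes against their label of hippocampus. The same held in PQQ-L 3, at 208 against 134 FPKM, although its striatal sum was far below those of the 4. All these libraries were kept under that label. The choroid plexus list (18 genes, with 17 tested) summed to 1798 to 5994.5 FPKM in CON, 102 to 200.4 in PQQ-L and 77.4 to 95.8 in PQQ-H. Its first gene Ttr, which encodes transthyretin, ranged from 1499 to 5315, 42.6 to 113 and 12.8 to 30.02 FPKM in the same order.

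Among the 9 genes, the Id genes had the highest levels and Bmp4 and Smad6 the lowest. Averaged over the 12 libraries, the level was 66.3 FPKM for Id2, 34.6 for Id3, 33.2 for Id4, 13.0 for Id1, 6.23 for Smad7, 3.49 for Bmp6, 2.62 for Bmp7, 0.826 for Smad6 and 0.578 for Bmp4. Id2 was above Id3 in 12 of 12 libraries, whereas Id3 was above Id4 in 7 of 12, so this pair of neighbours did not differ beyond the spread. The remaining neighbours in this order kept it in 12 of 12 libraries, except Smad7 over Bmp6 and Smad6 over Bmp4, each in 11 of 12. Smad7 was 4.64 to 11.3 times as high as Smad6 within a library.

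**Figure D1:**
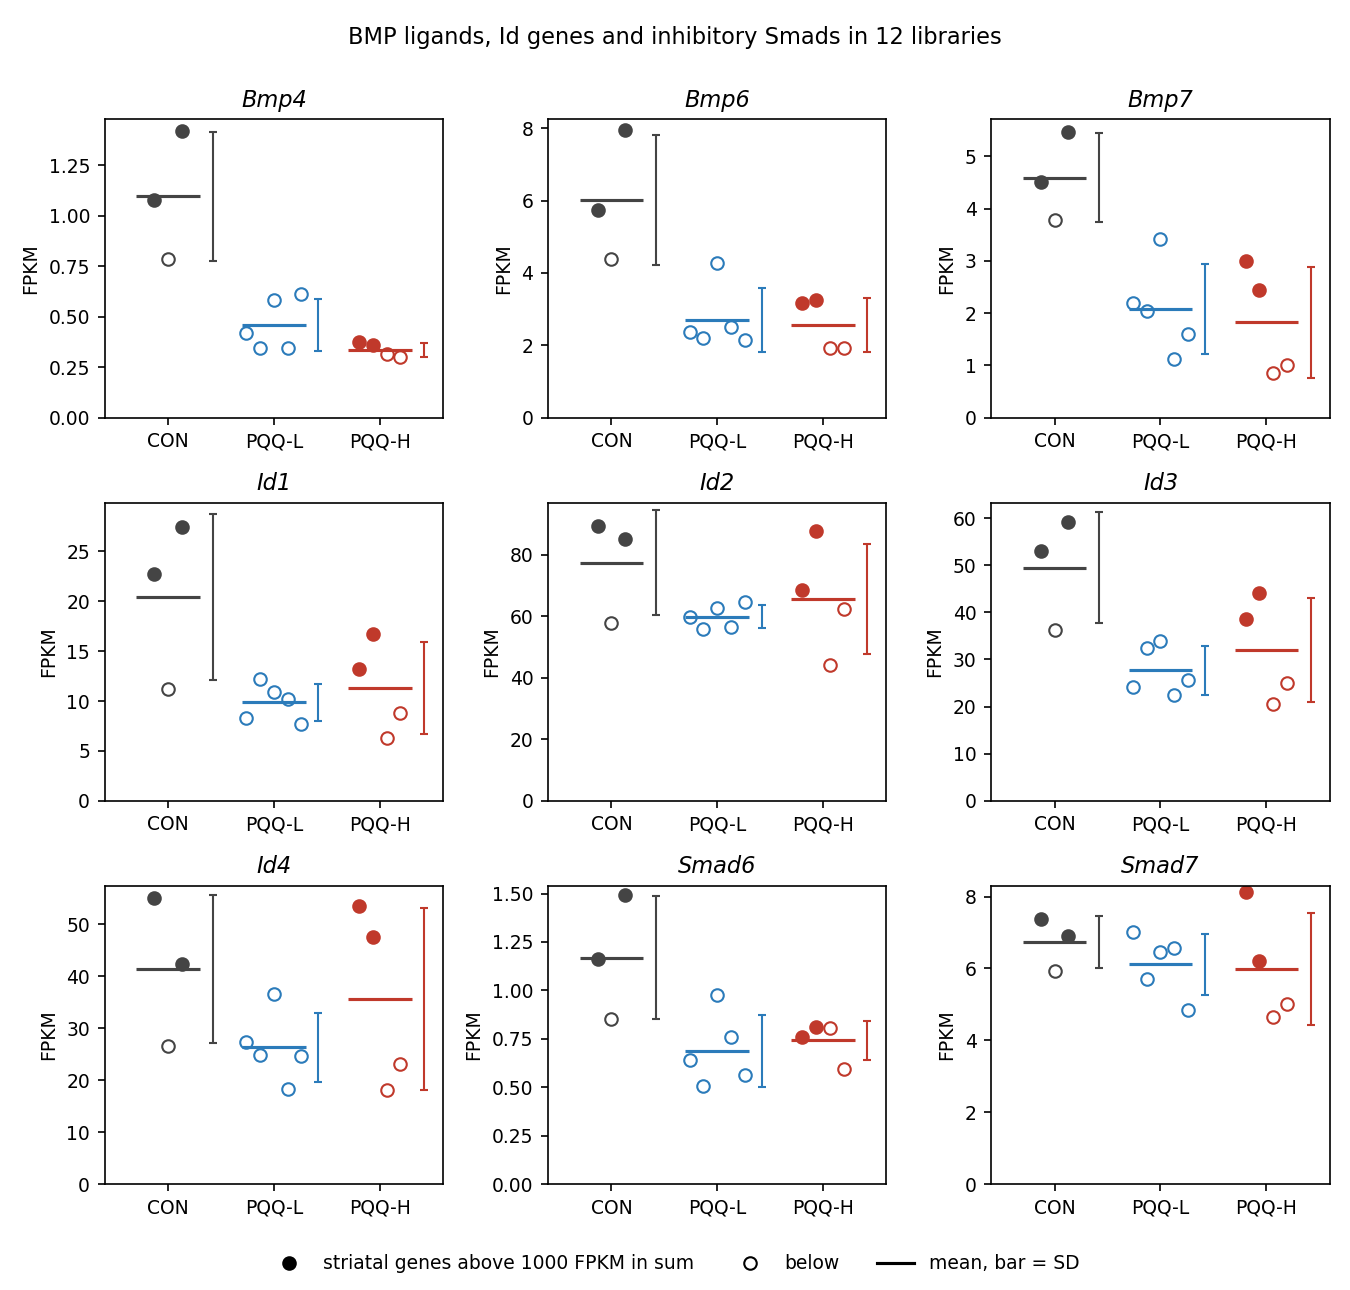
Level of each of the 9 genes in FPKM (vertical axes start at 0) in the CON, PQQ-L and PQQ-H libraries, with 1 point per library, the group mean as a horizontal line and the SD as a bar; filled points are the 4 libraries with more than 1000 FPKM of striatal genes. The CON points of Bmp4, Bmp6 and Bmp7 sit above every PQQ point of the same panel, and the filled points of all 4 Id genes sit above every open point.

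The comparison of each dose with CON asks how the hippocampal transcriptome of aged mice differed after PQQ. In both, 9 of 9 genes had a mean log2 level below that of CON, where 53.9% of all genes tested did at the low dose and 55.6% at the high dose. At an unadjusted limma p below 0.05, 6 of 9 genes were lower in PQQ-L, beside 11.6% of all genes, and the same 6 of 9 in PQQ-H, beside 7.88%. These 6 were Bmp4, Bmp6, Bmp7, Id1, Id3 and Smad6, and 0 of 9 were higher (8.92% and 1.85% of all genes). Past both thresholds (|log2FC| above 1 and adjusted p below 0.05), 0 of 9 genes changed in PQQ-L, beside 0.471% of all genes that were lower, and 1 of 9, Bmp4, fell in PQQ-H, beside 0.819%. The counts at the unadjusted p came to 3 of 9 in both comparisons without CON 3 (7.27% and 6.04% of all genes were lower), and to 3 of 9 in PQQ-H without CON 1 (6.77%) or without PQQ-H 4 (6.18%). Without CON 2, where only striatum-rich controls are left, 4 of 9 genes (Bmp4, Bmp6, Id1 and Id3) passed both thresholds in PQQ-L, beside 3.12% of all genes that were lower and 3.15% that were higher.

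Bmp4 encodes a ligand that restrains neural stem cell division and favours astrocyte over neuron formation. Its level was 1.08, 0.786 and 1.42 FPKM in CON 1 to 3, from 79, 48 and 98 reads. In PQQ-L it was 0.419, 0.343, 0.583, 0.345 and 0.612 FPKM, from 25 to 43 reads, and in PQQ-H 0.373, 0.360, 0.317 and 0.298 FPKM, from 21 to 27 reads. The group means were 1.10 ± 0.318 (SD, n = 3), 0.460 ± 0.129 (SD, n = 5) and 0.337 ± 0.0351 FPKM (SD, n = 4). Each of the 9 PQQ libraries was below the lowest CON library, and the 4 PQQ-H libraries lay within a narrow range. The difference was -1.09 on the log2(FPKM + 0.1) scale for PQQ-L vs. CON (SE 0.235, adjusted p = 0.0756, limma) and -1.42 for PQQ-H vs. CON (SE 0.246, adjusted p = 0.0192). In FPKM + 0.1 this is 53.0% and 62.7% below CON, which understates the difference in FPKM of so low a gene. An exact two-sided permutation test gave p = 0.0357 and p = 0.0571, each the smallest value the test can give with 3 libraries against 5 and against 4, so the higher dose could not reach 0.05 by it. The PQQ-H call was lost without any one of CON 1 (adjusted p = 0.0838), CON 3 (0.110), PQQ-H 3 (0.0622) or PQQ-H 4 (0.0725), while the difference stayed between -1.41 and -1.23. Without CON 2, the PQQ-L difference was -1.29 and called (adjusted p = 0.0224).

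Bmp6 encodes a ligand known for inducing hepcidin in iron metabolism, made in the brain by endothelial and choroid plexus cells. In CON it stood at 5.74, 4.38 and 7.94 FPKM. In PQQ-L it was 2.36, 2.21, 4.28, 2.51 and 2.16 FPKM, and in PQQ-H 3.17, 3.25, 1.93 and 1.93 FPKM. No PQQ library reached the lowest CON library, although PQQ-L 3 came close to it. This gave log2 differences of -1.13 for PQQ-L vs. CON (SE 0.271, adjusted p = 0.107) and -1.20 for PQQ-H vs. CON (SE 0.283, adjusted p = 0.0872), with unadjusted limma p-values of 0.00142 and 0.00128. In FPKM + 0.1 these are 54.4% and 56.5% below CON. Without PQQ-L 3, both passed the thresholds, at adjusted p = 0.0409 and 0.0437, and without CON 2 the PQQ-L difference did (adjusted p = 0.0267). Bmp6 shares 224 exonic bases with Txndc5 on the opposite strand in GENCODE M21 (GRCm38), and Txndc5 reached 23.9 FPKM. The strand setting of the counting is not given in the sources used here, so reads of the shared stretch cannot be assigned to one of these genes.

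Bmp7 encodes a ligand best known from kidney and bone, which meninges and choroid plexus also make. It was at 4.52, 3.78 and 5.48 FPKM in CON, 2.20, 2.05, 3.42, 1.12 and 1.60 in PQQ-L, and 2.99, 2.44, 0.851 and 1.01 in PQQ-H. All 9 PQQ libraries were below all 3 CON libraries, and PQQ-H fell into a higher pair (PQQ-H 1 and 2) and a lower pair (PQQ-H 3 and 4). The higher pair are the striatum-rich and the lower pair the striatum-poor libraries of PQQ-H. The log2 difference was -1.18 for PQQ-L vs. CON (SE 0.415, adjusted p = 0.219) and -1.45 for PQQ-H vs. CON (SE 0.434, adjusted p = 0.212), with unadjusted limma p-values of 0.0154 and 0.00623. Its group means were 4.59 ± 0.852 (SD, n = 3), 2.08 ± 0.864 (SD, n = 5) and 1.82 ± 1.06 FPKM (SD, n = 4).

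The Id genes are the targets of the pathway. Their log2 differences had a median of -0.72 at the low and -0.48 at the high dose, where that of the 3 ligands was -1.13 and -1.42 and that of all genes tested -0.03 in both. Whether the Id genes differ from the ligands in this was not tested. Id1, Id3, Bmp4, Bmp6, Bmp7 and Smad6 had confidence intervals below 0 in both comparisons, and those of Id2, Id4 and Smad7 included 0.

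Id1, which marks quiescent neural stem cells and is the target most used as a readout of BMP signalling, was at 22.7, 11.2 and 27.4 FPKM in CON. In PQQ-L it was 8.29, 12.2, 10.96, 10.2 and 7.65 FPKM, and in PQQ-H 13.2, 16.7, 6.34 and 8.85 FPKM. CON 2 lay within the range of both PQQ groups, and CON 1 and CON 3 lay above all of them. In PQQ-L vs. CON its log2 difference was -0.97 (SE 0.334, adjusted p = 0.218), and in PQQ-H vs. CON -0.85 (SE 0.349, adjusted p = 0.442), with unadjusted limma p-values of 0.0137 and 0.0319. Over single libraries left out, the PQQ-L difference ran from -1.35 (without CON 2, past both thresholds at adjusted p = 0.0283) to -0.71 (without CON 3). It was -0.40 with the striatal score as a covariate and -0.21 with the striatum-poor libraries alone, where CON 2 is the single control.

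Id3, a second target expressed in vessels and astrocytes, was at 53.0, 36.3 and 59.1 FPKM in CON, 24.1, 32.5, 34.0, 22.4 and 25.6 in PQQ-L, and 38.6, 44.0, 20.5 and 25.1 in PQQ-H. The PQQ-L libraries were all below CON, whereas PQQ-H 1 and PQQ-H 2 were above CON 2. Against CON, Id3 differed by -0.82 in PQQ-L (SE 0.255, adjusted p = 0.190) and by -0.66 in PQQ-H (SE 0.267, adjusted p = 0.431) on the log2 scale, with unadjusted limma p-values of 0.00771 and 0.0299. Over single libraries left out, the PQQ-L difference ran from -1.03 (without CON 2, adjusted p = 0.0328) to -0.68 (without CON 3). With the striatal score it was -0.38, and with the striatum-poor libraries alone -0.41.

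Id4, which is abundant in astrocytes and hippocampal stem cells and opposes the other Id proteins in some settings, was at 55.0, 26.6 and 42.3 FPKM in CON. In PQQ-L it was 27.2, 24.9, 36.6, 18.3 and 24.6 FPKM, and in PQQ-H 53.4, 47.6, 18.2 and 23.0 FPKM. The PQQ-H libraries split into a high pair within the range of CON and a low pair below the lowest CON library. The high pair are the striatum-rich PQQ-H 1 and PQQ-H 2. Id4 thus differed from CON by -0.62 on the log2 scale in PQQ-L (95% interval -1.42 to 0.18) and by -0.30 in PQQ-H (-1.14 to 0.54). An antisense gene, A330033J07Rik, shares 82 exonic bases with Id4 and reached 1.49 FPKM.

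Id2, which neurons as well as glia express, was at 89.3, 58.0 and 85.3 FPKM in CON, 59.8, 55.8, 62.6, 56.7 and 64.8 in PQQ-L, and 68.5, 87.7, 44.3 and 62.5 in PQQ-H. The 5 PQQ-L libraries lay close together around the level of CON 2. The log2 difference was -0.35 (95% interval -0.77 to 0.08) and -0.25 (-0.70 to 0.19) for PQQ-L and PQQ-H vs. CON. Id2 made up 39.4 to 52.8% of the summed Id level within a library.

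Smad6, which binds activated BMP receptors and Smad1, was at 1.16, 0.853 and 1.49 FPKM in CON (76 to 150 reads). In PQQ-L it was 0.638, 0.506, 0.976, 0.757 and 0.566 FPKM (58 to 105 reads), and in PQQ-H 0.757, 0.812, 0.803 and 0.594 FPKM (61 to 85 reads). PQQ-L 3 was above CON 2, and the PQQ-H libraries were all below CON. On the log2 scale Smad6 differed from CON by -0.69 in PQQ-L (SE 0.224, adjusted p = 0.206) and by -0.57 in PQQ-H (SE 0.234, adjusted p = 0.443), with unadjusted limma p-values of 0.0105 and 0.0327.

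Smad7, which blocks TGF-beta as well as BMP receptors, was at 7.37, 5.94 and 6.91 FPKM in CON, 7.01, 5.70, 6.46, 6.56 and 4.83 in PQQ-L, and 8.12, 6.20, 4.66 and 5.00 in PQQ-H. The 3 groups overlapped throughout. The log2 difference was -0.14 (95% interval -0.53 to 0.24) and -0.19 (-0.60 to 0.21) for PQQ-L and PQQ-H vs. CON, with no called difference.

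Groups without overlap were counted as well. In PQQ-L vs. CON, 4 of 9 genes (Bmp4, Bmp6, Bmp7 and Id3) were lower in every PQQ-L library than in every CON library, beside 7.66% of all genes tested. In PQQ-H vs. CON this held for 4 of 9 (Bmp4, Bmp6, Bmp7 and Smad6), beside 5.72%. No gene of the 9 was higher in this way (2.96% and 1.36% of all genes). For groups without overlap the exact permutation test always gives its smallest value, p = 0.0357 in PQQ-L and p = 0.0571 in PQQ-H. It therefore adds nothing to these counts. Both comparisons use the same 3 CON libraries, so their values are not independent of each other.

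**Figure D2:**
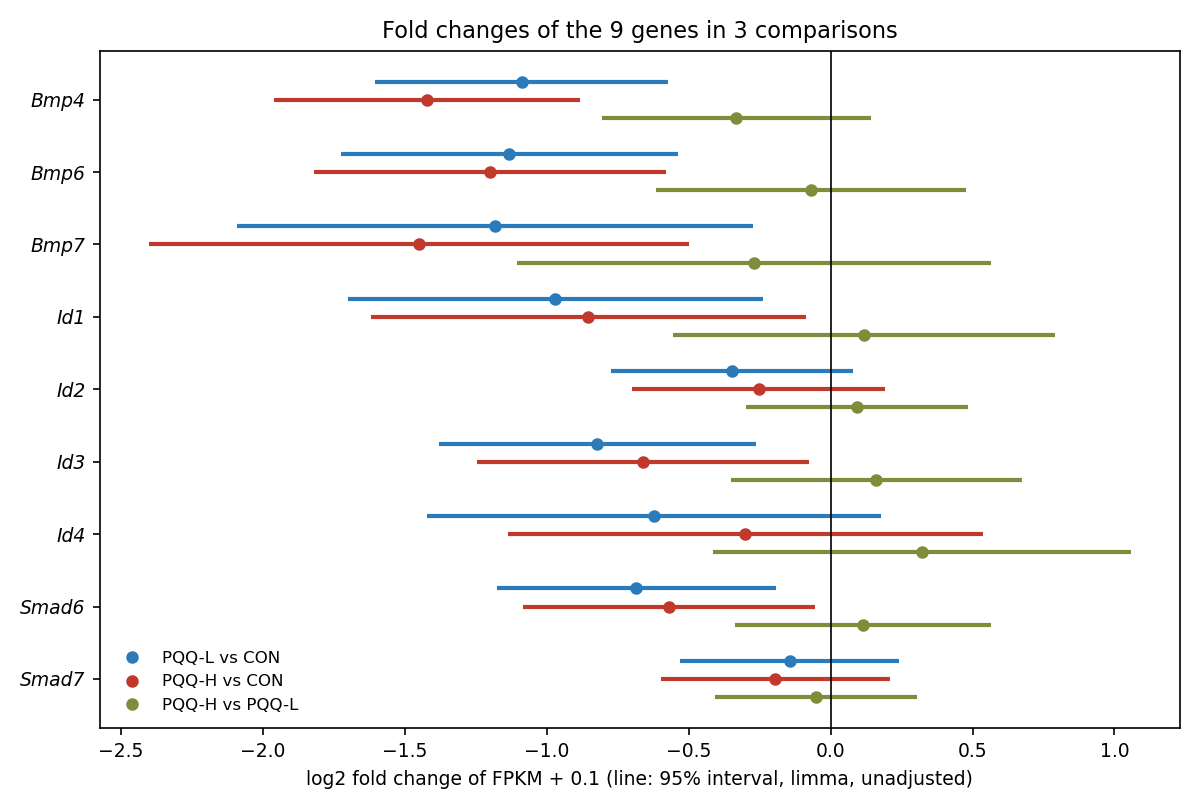
Difference of the mean log2(FPKM + 0.1) level between groups for each of the 9 genes, with points for the 3 comparisons (each dose with CON, and the high with the low dose) and lines for the unadjusted 95% interval of limma. Against CON every point is below 0 and the lines of Bmp4, Bmp6, Bmp7, Id1, Id3 and Smad6 stay below it, whereas every line of PQQ-H vs. PQQ-L crosses 0.

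The 2 doses were also compared with each other, in the same fit. In PQQ-H vs. PQQ-L, 0 of 9 genes passed an unadjusted limma p of 0.05 in either direction (4.60% of all genes were lower and 3.55% higher), 0 of 9 had groups without overlap (3.33% of all genes were lower and 1.42% higher), 4 of 9 had a log2 difference below 0 (54.3% of all genes), and 0 of 13796 genes passed both thresholds. The log2 difference was -0.33 for Bmp4 (95% interval -0.81 to 0.14, exact permutation p = 0.0952), -0.07 for Bmp6 (-0.61 to 0.48) and -0.27 for Bmp7 (-1.10 to 0.57). The 4 Id genes stood at 0.12 (Id1), 0.09 (Id2), 0.16 (Id3) and 0.32 (Id4, -0.41 to 1.06). These intervals leave room for differences of either sign, and the values do not show that the doses acted alike.

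The libraries differed among themselves across the whole set of genes. CON 1 was among the 3 highest libraries for 9 of 9 genes and CON 3 for 7, with CON 3 the highest of all for 6. PQQ-H 3 was the lowest library for 7 of 9 genes and among the 3 lowest for 8. PQQ-L 3 was among the 3 highest for 1 and among the 3 lowest for 0.

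The 4 libraries with high striatal sums carried the highest Id levels. Id1 was 13.2 to 27.4 FPKM in these 4 and 6.34 to 12.2 in the other 8, and Id4 was 42.3 to 55.0 against 18.2 to 36.6. For Id2 the ranges were 68.5 to 89.3 and 44.3 to 64.8, and for Id3 38.6 to 59.1 and 20.5 to 36.3. All 4 Id genes thus had no overlap between these sets of libraries, beside 10.7% of all genes tested in the same direction. The 3 ligands and both Smad genes overlapped between the sets. Within CON and within PQQ-H, however, Bmp4, Bmp6, Bmp7 and Smad7 were also higher in the striatum-rich libraries. Bmp7 was 4.52 and 5.48 against 3.78 FPKM in CON, and 2.44 and 2.99 against 0.851 and 1.01 in PQQ-H. Smad6 overlapped within PQQ-H, and CON 2 is the only striatum-poor control. The limit of 1000 FPKM that separates the sets was chosen after the values were seen, and the sets are no groups of the study.

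Within the striatum-rich libraries, Bmp4 was 1.08 and 1.42 FPKM in CON against 0.373 and 0.360 in PQQ-H. Bmp6 was 5.74 and 7.94 against 3.17 and 3.25, and Bmp7 4.52 and 5.48 against 2.99 and 2.44. Each of these ligands was also highest in CON 2 among the 8 striatum-poor libraries, at 0.786, 4.38 and 3.78 FPKM. Within the striatum-rich libraries, Id1 and Id3 were below CON in PQQ-H (13.2 and 16.7 against 22.7 and 27.4 FPKM for Id1), while Id2 and Id4 overlapped there (47.6 to 53.4 against 42.3 to 55.0 FPKM for Id4). In fits chosen after seeing the data, 6 of 9 genes were lower at an unadjusted limma p below 0.05 in PQQ-H vs. CON with the striatum-rich libraries alone, beside 3.78% of all genes. Among the striatum-poor libraries CON 2 is the single control and is assumed to vary like the other groups, so the fit rests on their spread: 4 of 9 were lower in PQQ-H (8.15% of all genes) and 0 of 9 in PQQ-L (3.06%). With the striatal score (mean log2 level of the list) as a covariate, 3 of 9 (Id3, Bmp4 and Bmp6) were lower in PQQ-L vs. CON (5.18% of all genes). In PQQ-H vs. CON, 6 of 9 were lower in that fit (9.23%). There Bmp4 (-1.36, adjusted p = 0.0117), Bmp6 (-1.07, adjusted p = 0.0199) and Bmp7 (-1.24, adjusted p = 0.0439) passed both thresholds, beside 1.02% of all genes.

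**Figure D3:**
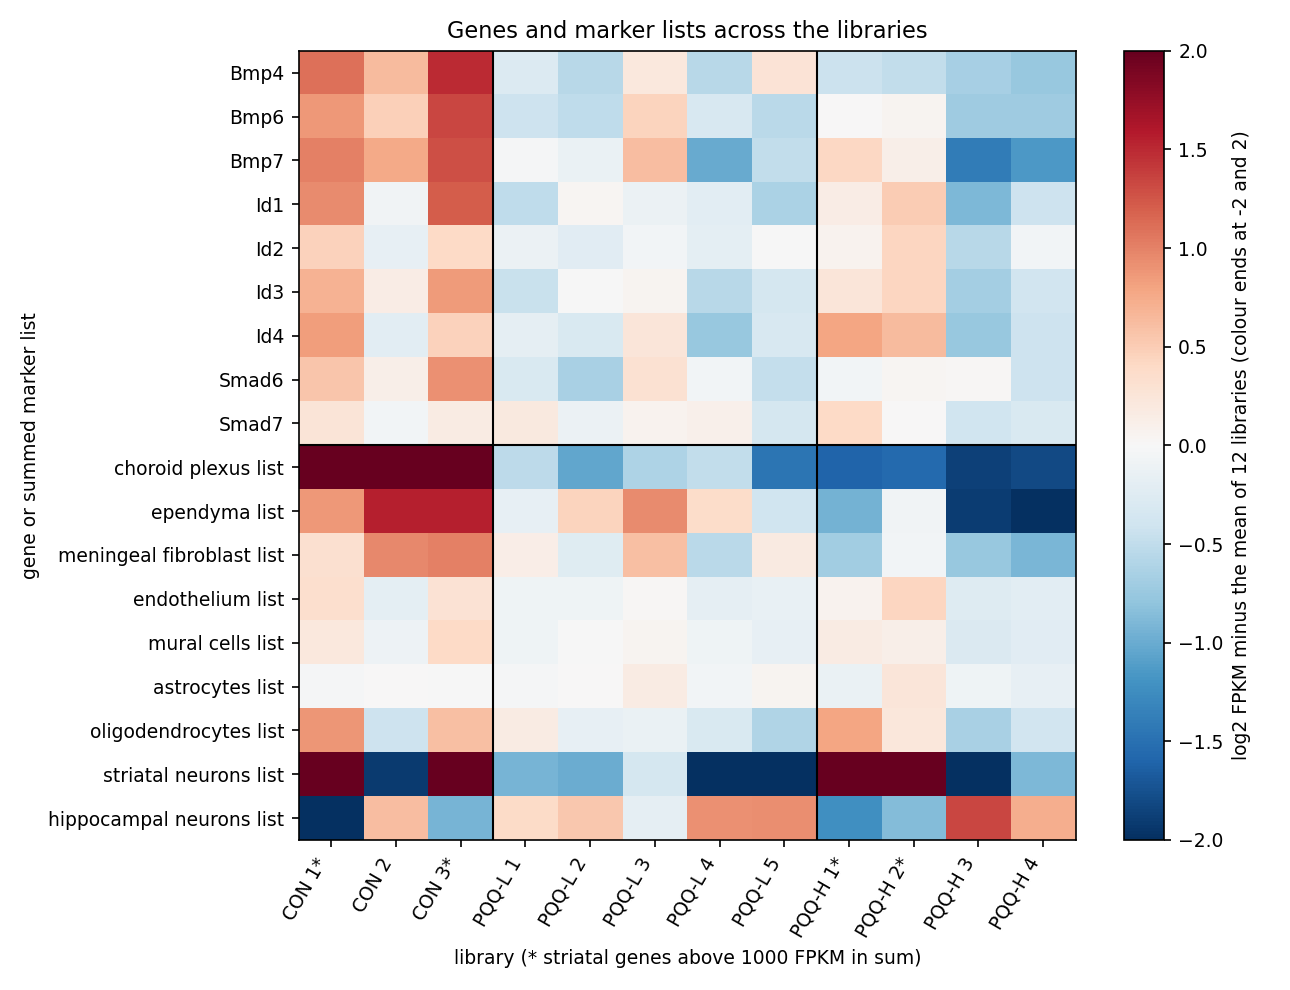
Level of each of the 9 genes and summed level of marker gene lists (rows) in the 12 libraries (columns, with striatum-rich ones starred), as log2 FPKM minus the mean of the row, with colours ending at -2 and 2. The choroid plexus row is dark red in CON and blue in all PQQ libraries, and the rows of the Id genes are red in the starred columns.

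Marker lists of other cells, among them cells that make BMP ligands, moved with the groups as well. Of the 17 choroid plexus genes tested, 14 fell past both thresholds in PQQ-L and 15 in PQQ-H vs. CON. In the PQQ libraries 0 to 6 of its 18 genes were at 0, against 0 in each CON library. Within PQQ-L, the summed level of the list was highest in PQQ-L 4 (200.4 FPKM), followed by PQQ-L 1 (196) and PQQ-L 3 (184). The mean log2 level of the list was instead highest in PQQ-L 3 (0.14, against -0.84 to -0.27 in the others). PQQ-L 3 had the highest Bmp6 and Bmp7 levels of that group, while Bmp4 was highest in PQQ-L 5. In CON the choroid plexus sums were 5994.5 (CON 3), 4088 (CON 1) and 1798 FPKM (CON 2). Bmp4, Bmp6, Bmp7, Smad6, Id1 and Id3 had this order, whereas Id2, Id4 and Smad7 were highest in CON 1. In PQQ-H 1 and 2 the sums (92.9 and 95.8) and these ligands were above those of PQQ-H 3 and 4 (77.4 and 80.9). The mean log2 levels did not split so (-1.36, -1.11, -1.23 and -1.38 in PQQ-H 1 to 4). The higher libraries in both groups are the striatum-rich ones. Ependymal genes (8 listed, 6 tested) summed to 26.1 to 41.7 FPKM in CON, 10.9 to 27.4 in PQQ-L and 2.97 to 13.7 in PQQ-H, with 0 and 3 called lower. Meningeal fibroblast genes (14 listed, 13 tested) summed to 70.4 to 114, 38.7 to 85.0 and 29.8 to 54.4 FPKM, with 1 and 3 called lower. PQQ-L 3 had the highest ependymal and meningeal sums of the PQQ libraries, but not the highest choroid plexus sum. Endothelial genes (14) summed to 130 to 189, 133 to 151 and 125 to 202 FPKM with 0 called, and astrocyte genes (10) to 856 to 867, 836 to 971 and 776 to 1025 FPKM with 0 called. Of the endothelial genes, 13 and 14 had log2 differences below 0 in PQQ-L and PQQ-H vs. CON (medians of -0.25 and -0.17). In each, 2 were lower at an unadjusted limma p below 0.05, beside 11.6% and 7.88% of all genes. Mural cell genes (9) summed to 82.5 to 117, 78.5 to 91.9 and 72.5 to 99.4 FPKM, with 9 and 8 below 0 and 0 called. Of the astrocyte genes, 2 and 6 were below 0. Of 9 thalamic neuron genes tested, 6 were lower at an unadjusted p below 0.05 in both comparisons (medians of -1.36 and -1.61 on the log2 scale), with summed levels of 31.2 to 149.5, 25.2 to 109 and 19.7 to 43.8 FPKM. All 9 oligodendrocyte genes had log2 differences below 0 in both (medians of -0.60 and -0.33), with 0 below that p. The part of these lists in the levels of the 9 genes was not tested. In bulk tissue, fewer cells of a type and less RNA per cell cannot be told apart.

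Beyond the 9 genes, 89 genes of the pathway and its partners were set out in 8 lists, of which 87 were in the table used and 70 were tested. Past both thresholds, 1 of 70 was called in PQQ-L vs. CON and 2 of 70 in PQQ-H vs. CON, all lower, beside 0.471% and 0.819% of all genes, and 0 in PQQ-H vs. PQQ-L. These were Sostdc1 in both and Msx1 in PQQ-H. Without CON 2, 14 of 70 were called in PQQ-L vs. CON, beside 6.28% of all genes in either direction, in the fit that leaves only striatum-rich controls.

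Sostdc1 encodes a secreted protein that binds BMP ligands and keeps them from their receptors. It was at 13.5, 8.70 and 17.9 FPKM in CON, 1.16, 1.21, 2.04, 2.56 and 1.94 in PQQ-L, and 0.877, 1.01, 1.52 and 3.54 in PQQ-H. No PQQ library came near CON. It fell by 2.84 on the log2 scale in PQQ-L (SE 0.417, adjusted p = 0.00967) and fell by 3.02 in PQQ-H (SE 0.436, adjusted p = 0.00577). Among the striatum-poor libraries alone, with CON 2 as the single control, the differences were -2.29 and -1.86. Without CON 1 or CON 3, the PQQ-L call was lost at adjusted p = 0.0725 and 0.0682.

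Msx1 encodes a homeobox factor that BMP signals induce in several embryonic tissues. It was at 4.64, 4.77 and 7.81 FPKM in CON, 1.28, 1.45, 4.54, 2.36 and 2.12 in PQQ-L, and 1.31, 1.04, 1.87 and 1.09 in PQQ-H. PQQ-L 3 stood close to CON 1, and the other PQQ libraries were lower. The log2 difference was -1.35 for PQQ-L (SE 0.357, adjusted p = 0.144) and -2.03 for PQQ-H vs. CON (SE 0.373, adjusted p = 0.0268). The PQQ-H call was lost without CON 1 (adjusted p = 0.0773), CON 3 (0.147), PQQ-H 1 (0.0607) or PQQ-H 4 (0.0958), and without CON 2 or PQQ-L 3 the PQQ-L difference was called.

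No other gene of these lists was called. Of the remaining BMP ligands, 4 of 13 were tested (Bmp2, Bmp3, Gdf10 and Gdf11), and the smallest unadjusted limma p over the 3 comparisons was 0.165 for Bmp3. Of 10 receptors and co-receptors tested, 1 was higher at an unadjusted p below 0.05 in PQQ-L vs. CON. This was Bmpr2, a type II receptor of the ligands described above, at 10.2 ± 3.51 FPKM in CON (SD, n = 3) and 14.8 ± 1.60 in PQQ-L (SD, n = 5). Its log2 difference was 0.57 (SE 0.201, adjusted p = 0.220), 0.21 with the striatal score and 0.05 with the striatum-poor libraries, where CON 2 is the single control. It was 0.37 without CON 1. The 6 receptor and common Smad genes had 0 below that p, with median log2 differences of 0.02 and -0.09 in PQQ-L and PQQ-H vs. CON. Of 14 antagonists tested, 3 were higher (Nog, Chrd and Tmeff2) and 1 lower (Sostdc1) at an unadjusted p below 0.05 in PQQ-L, and 2 lower (Sostdc1 and Bmper) in PQQ-H. The counts of these lists stand beside 8.92% higher and 11.6% lower of all genes in PQQ-L, and 1.85% and 7.88% in PQQ-H.

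Other targets of BMP and TGF-beta signals did not share one direction. Klf10, an immediate target of TGF-beta, was 2.50 to 5.79 FPKM in CON and 6.45 to 9.17 in PQQ-L, a log2 difference of 0.78 (adjusted p = 0.190), which was 0.39 without CON 1. Runx2, a bone factor, differed by 0.86 in PQQ-L vs. CON (adjusted p = 0.225). This difference was 0.32 with the striatal score and 0.14 with the striatum-poor libraries, where CON 2 is the single control. Dlx5 differed by -1.24 (adjusted p = 0.233), at 2.73 to 9.48 FPKM in CON and 1.57 to 2.62 in PQQ-L. In PQQ-H it was 1.86 to 7.29 FPKM and overlapped with CON, at a log2 difference of -0.43. Of 9 such targets tested, 2 were lower and 2 higher at an unadjusted p below 0.05 in PQQ-L, and 2 lower and 0 higher in PQQ-H vs. CON. Skil, which represses Smad-driven transcription, had a log2 difference of 0.44 in PQQ-H vs. CON (adjusted p = 0.347).

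Among partners of the Id proteins, 10 of 12 were tested. Tcf4, an E protein that Id proteins bind, was the one gene with an unadjusted limma p below 0.05, at a log2 difference of 1.01 in PQQ-L vs. CON (adjusted p = 0.237), and this difference was 0.41 without CON 1, 0.22 with the striatal score and 0.0057 with the striatum-poor libraries, where CON 2 is the single control. Of 8 TGF-beta and activin genes tested, Tgfbr2, the type II receptor of TGF-beta, was 5.77 to 6.23 FPKM in CON, 3.82 to 4.60 in PQQ-L and 3.08 to 5.42 in PQQ-H. It did not overlap with CON in either group, at log2 differences of -0.48 and -0.47 (adjusted p = 0.190 and 0.291). In PQQ-H vs. PQQ-L, Inhbb, an activin subunit, differed by -0.55 and Tmeff2 by -0.34 (adjusted p = 0.580 for each).

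**Figure D4:**
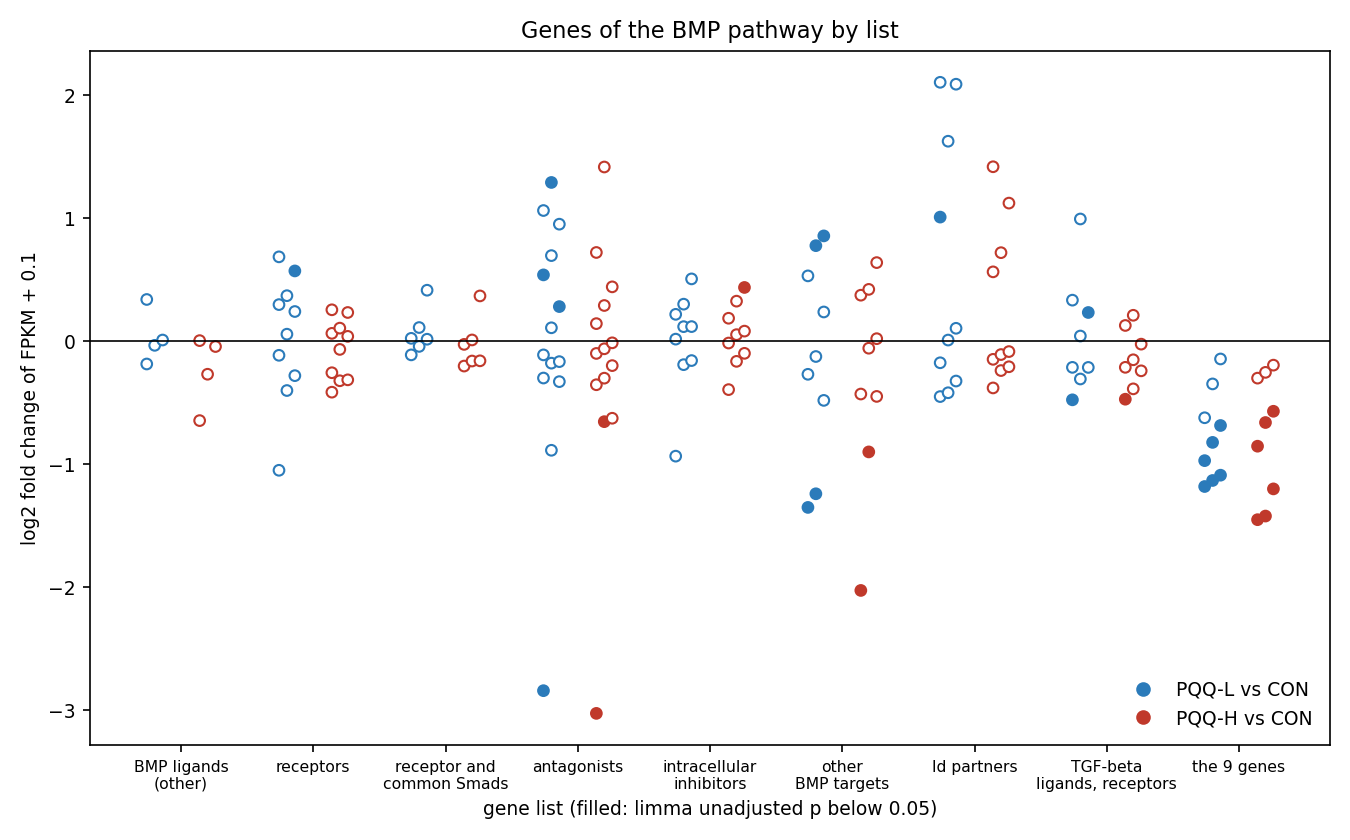
Log2 fold change of FPKM + 0.1 for each tested gene of the pathway lists and of the 9 genes (horizontal axis), with the comparisons of both doses with CON in separate colours and filled points for an unadjusted limma p below 0.05. The 9 genes all lie below 0, Sostdc1 lies lowest at -2.84 and -3.02, and the receptors and receptor Smads spread around 0.

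The genes whose levels over the 12 libraries were most like each member were looked up among all genes tested, with the Pearson correlation of log2(FPKM + 0.1) as the measure of likeness. These values are descriptions across libraries that share groups and tissue composition. For Id1 they were Npc2 and Acaa2 (r = 0.972 and 0.971), for Id3 Serinc3, Sult1a1 and Idh2 (0.971, 0.970 and 0.965), for Id2 Gng5, Rab13 and Degs2 (0.976, 0.966 and 0.960) and for Id4 Phyhd1, Prkar2b and Rcn1 (0.985, 0.981 and 0.979). The nearest genes to Bmp4 were Smim22, Col18a1 and Mycbp (0.965, 0.956 and 0.953), to Bmp6 Sulf1, Cdkn1c and Cgnl1 (0.976, 0.973 and 0.973) and to Bmp7 Spata6, Bcl2l1 and Tie1 (0.970, 0.967 and 0.962). For Smad6 the nearest gene of all was Bmp6 (0.904), followed by Slc37a2 and Slc16a4 (each 0.901), and for Smad7 they were Myo18a, Cc2d1b and Slain1 (0.967, 0.952 and 0.950).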

How the data were processed

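RNA of 12 libraries labelled as hippocampus was extracted with TRIzol by the authors, sequenced on an Illumina NovaSeq instrument, filtered with fastp, mapped with HISAT2 and counted per gene with HTSeq-count. The deposited values are FPKM per gene, computed by the authors. The submitters' processing notes name the build mm39, while the annotation, the strand setting and the program versions are not given in the sources used here. Libraries were grouped by their labels. Ratios of a gene's FPKM between libraries gave back its whole reads (100% of the 25563 genes above 0 in at least 2 libraries, within 0.02 reads), with totals of 29654553 to 38179496. They serve to state depth and for 1 alternative. No counting intervals were computed from the reads.

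Groups were compared with limma 3.58.1 (R 4.3.3) on log2(FPKM + 0.1), a moderated test with trend in 1 fit of the 12 libraries, with Benjamini-Hochberg adjustment over the 13796 genes whose mean reached 0.5 FPKM. A gene was called at |log2FC| above 1 and adjusted p below 0.05. The fold change on this scale understates that of low genes such as Bmp4. A two-sided exact permutation test (scipy 1.17.1) of the mean log2 level was run for each of the 9 genes. The scripts were tested on simulated data. Replicate numbers were not used to pair the libraries in this fit (see the alternatives).

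The 9 genes and all lists were chosen with earlier results of these data known. The genes named are the 9, the called genes and, per pathway list, the 2 genes of smallest p, the first gene of marker lists that are reported, and the 3 genes most like each member, of which 1 is not reported here. Nog, Chrd, Dlx5, Gdf10, Bmp2 and Txndc5 were named in addition, after their values were seen. Gene positions came from GENCODE M21 (GRCm38) and promoter windows from RefSeq (GRCm38.p6), matched by symbol. Alternatives changed the pseudocount (0.01 or 1), the filter, the scaling, the unit, the variance model, the libraries and the covariates, 1 at a time.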

Additional observations from a re-analysis of the deposited data

Results flagged for a closer look

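In the 54 groups of 4 or 5 libraries examined for the 9 genes and the named pathway genes, 3 single libraries lay far from the others of their group, and chance alone gives about 1 in 20. All 3 were PQQ-L 3. Its Bmp6 level was 4.28 FPKM, where the other 4 PQQ-L libraries lay between 2.16 and 2.51 FPKM. Its level of Skil, a repressor of Smad-driven transcription, was 9.28 FPKM against 11.8 to 12.2 in the others. Its level of the activin subunit gene Inhbb was 2.17 FPKM against 1.72 to 1.74.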

How the results depend on the processing

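Every log2 difference of the 9 genes from CON kept its sign in every alternative but those on striatal libraries and the striatal score, which were added after seeing the data. Bmp4 in PQQ-H vs. CON ranged from -1.66 to -0.64 over all alternatives, and it was called in 18 of the 29 fits that tested it, the reported one included. The count past both thresholds there went from 1 of 9 to 0 with array quality weights (adjusted p = 0.373), with only the 2 groups compared (0.0990), with quantile normalization (0.0525), with a pseudocount of 1, where the log2 difference is -0.64, with a mean FPKM of at least 1, which leaves 7 of the 9 genes, and with the striatum-poor or the striatum-rich libraries only, and to 3 with the striatal score. In PQQ-L vs. CON it went from 0 to 1 (Bmp4) without the trend or with voom on the recovered reads. Without single libraries these counts were 0 to 2 in PQQ-H and 0 to 4 in PQQ-L vs. CON, and 0 between the doses. The count at the unadjusted p was 3 to 7 in PQQ-H and 3 to 8 in PQQ-L vs. CON without single libraries, 3 in PQQ-H with array quality weights, and 3 (striatal score) and 0 (striatum-poor libraries) in PQQ-L. It was 1 (Bmp7) in PQQ-H vs. PQQ-L under both of the latter. Without single libraries, 893 to 2772 of all 13796 genes were below the unadjusted limma p of 0.05 in PQQ-H vs. CON, in either direction. In PQQ-L vs. CON they were 878 to 5949, the highest without CON 2. With array quality weights, 858 genes were below it in PQQ-H vs. CON. With the striatal score, 1388 genes were below it in PQQ-H vs. PQQ-L. The cause of these shifts was not tested.

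Same-numbered libraries correlated at -0.62 (CON 2 and PQQ-H 2) to 0.72 (CON 1 and PQQ-H 1) in their deviations. The former are a striatum-poor and a striatum-rich library, and the latter are both striatum-rich. These values show no pairing by number, but they cannot exclude one. With the replicate block, 3 of 9 genes passed the unadjusted p in PQQ-L and 4 of 9 in PQQ-H vs. CON. Beside these, 1113 and 865 of all 13796 genes passed it. Past both thresholds there were 0 of the 9, and 23 and 48 of all genes.

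In PQQ-H vs. PQQ-L, where no gene was called, signs turned. Without single libraries, Bmp6 ranged from -0.192 to 0.104 (above 0 without PQQ-H 3, PQQ-H 4 or PQQ-L 3), Bmp7 from -0.558 to 0.0091 (above 0 without PQQ-H 3) and Smad7 from -0.205 to 0.057 (above 0 without PQQ-H 3, PQQ-H 4 or PQQ-L 1). Id1 ranged from -0.103 to 0.359, Id2 from -0.058 to 0.269 and Id3 from -0.013 to 0.353, each below 0 without PQQ-H 2. Smad7 stood at 0.0022 with quantile normalization and Id1 at -0.0056 with array quality weights. With the striatal score Id1 to Id4 stood at -0.265, -0.114, -0.132 and -0.134, and with the striatum-poor libraries at -0.371, -0.185, -0.268 and -0.326. In PQQ-L vs. CON, the striatal score turned Id4 to 0.059 and Smad7 to 0.123, and the striatum-poor libraries turned Id2 to 0.046 and Smad7 to 0.030. In PQQ-H vs. CON, the striatum-rich libraries turned Id4 to 0.064.

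The called pathway genes numbered 0 (PQQ-L, from 1) and 0 (PQQ-H, from 2) with array quality weights and with the striatum-poor libraries, 1 in PQQ-H with only the 2 groups or the striatum-rich libraries, and 0 to 14 and 1 to 2 without single libraries. Of all genes, the counts called against CON at the low and the high dose were 65 and 113 as reported, 17 and 31 with array quality weights, 42 and 68 at a mean FPKM of at least 1, 112 and 170 with all genes above 0, 1 and 6 with the striatum-poor libraries, 69 and 44 with only the 2 groups compared, 123 and 159 with voom, and 23 to 866 and 62 to 153 without single libraries. The count of 866 was obtained without CON 2 and held 435 higher genes, where the reported fit held 0. TPM moved the median of all genes in PQQ-L vs. CON from -0.03 to 0.08. Names of the libraries begin with 1 of 2 letters (7 with L and 5 with R), whose meaning is not given: within both letters 9 of 9 genes were lower in PQQ-L and 8 of 9 in PQQ-H than in CON, the exception being Id4 at 0.10 within L. With 21 to 98 reads, Bmp4 is the member whose level is limited most by depth.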
